A study of Homo sapiens with 8 samples.

Results

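The RUNX and MEF2 transcription factors of MOLM-13 cells were followed under inhibition of the immunoproteasome. The 7 genes RUNX1, RUNX2, RUNX3, CBFB, MEF2A, MEF2C and MEF2D were taken by name from a table of 38551 genes. All 7 passed the filter on low counts, as did 13179 genes in all. MOLM-13 is an established human acute myeloid leukemia line that carries a rearranged KMT2A gene. Of the libraries, 4 came from cells given DMSO as diluent and 4 from cells given 100 nM PR-957 (also called ONX-0914), an inhibitor of the immunoproteasome subunit PSMB8. All 8 libraries were made from polyadenylated RNA after 72 h and came from this line alone, so both groups share its fusion and every other lesion it carries. No label says whether the replicates of a group were separate cultures, and p-values therefore measure the spread between these libraries, which may be technical.

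RUNX proteins bind DNA through a conserved Runt domain, and they do so stably only as a heterodimer with the non-DNA-binding subunit CBFB. RUNX1 is needed for the emergence of definitive blood stem cells and is often mutated or fused in leukemia, RUNX2 is best known as the master regulator of bone formation, and RUNX3 acts mainly in lymphocytes and sensory neurons. MEF2 proteins are MADS-box factors first described in muscle. They bind an A/T-rich sequence as dimers, are held silent by class IIa histone deacetylases, and are activated by calcium and MAP kinase signals. MEF2C is expressed in myeloid progenitors and is a known target of KMT2A fusions, and MEF2D is itself a fusion partner in lymphoblastic leukemia.

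RUNX genes are transcribed from a distal and a proximal promoter, and a gene-level count does not tell them apart. Promoter windows of 300 bases (250 before and 50 after an annotated start, RefSeq, build GRCh38.p14) were found for 6 of the 7 genes, 16 windows in all, and CBFB had no entry. The letters ACCACA or TGTGGT, the same word on both strands and the core of the RUNX recognition sequence, were searched in each window. They occurred in 2 of the 16 windows, those of the distal starts of RUNX2 and RUNX3, against 13.1% of all 35116 windows in the table. In both genes the word stood as a tandem pair separated by 2 bases. The pair, ACCACA followed by any 2 bases and ACCACA again, is a pattern chosen after these windows had been read. It was present on either strand in 4 of 35116 windows, and 2 of the 4 were those of RUNX2 and RUNX3. RUNX1 had 1 window (chromosome 21, 34888650 to 34888949), whereas its gene reaches upstream to 35049334, so its distal start was not searched. The 30 bases around each pair are shown because the pair is what the distal windows of RUNX2 and RUNX3 share. Capitals mark the RUNX word, and the sequences are written 5′ to 3′ on the strand of the gene.
RUNX3, chr1:24965120-24965149, minus strand: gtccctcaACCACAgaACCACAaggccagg
RUNX2, chr6:45328338-45328367, plus strand: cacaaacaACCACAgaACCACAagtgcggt
The longest run of identical bases between the distal windows was 18 bases, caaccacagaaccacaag. Counted from the annotated start on which each window is built, it began 133 bases before that of RUNX3 and 15 bases after that of RUNX2. The gene models of the count table include a RUNX3 transcript that starts farther upstream, so both pairs lie within the span of their gene in that table. A further 2 copies of the word, 191 and 87 bases before the start, lay in the upstream stretch of RUNX2, which is shown with these copies in capitals because its window held 4 RUNX words, more than any other window of the 6 genes.
RUNX2, chr6:45328080-45328316, plus strand: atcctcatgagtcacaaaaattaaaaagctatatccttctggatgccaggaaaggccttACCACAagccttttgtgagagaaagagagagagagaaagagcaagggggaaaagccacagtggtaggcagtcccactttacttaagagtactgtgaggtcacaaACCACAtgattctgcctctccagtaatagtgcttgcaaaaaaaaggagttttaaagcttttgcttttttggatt

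The MEF2 recognition sequence was searched as CTA, any 4 bases and TAG, which reads the same on both strands and therefore does not depend on the strand searched. It occurred in 1 of the 16 windows, a window of MEF2A, against 2.73% of all windows. The match lay 23 bases before an annotated start of MEF2A and is shown in capitals, since it was the single match among the members.
MEF2A, chr15:99565951-99565980, plus strand: ggcttgtctcCTAAAAATAGccccggtgtg
MEF2C had 7 annotated windows and neither word in any of them. The 250 bases before its most upstream start are shown because MEF2C had the largest difference between treatments among the members.
MEF2C, chr5:88904106-88904355, minus strand: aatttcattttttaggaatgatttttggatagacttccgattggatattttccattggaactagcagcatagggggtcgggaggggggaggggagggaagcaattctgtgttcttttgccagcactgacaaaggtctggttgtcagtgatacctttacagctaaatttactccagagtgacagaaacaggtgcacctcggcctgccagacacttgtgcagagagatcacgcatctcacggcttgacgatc
A match of letters describes these windows only and says nothing of binding.

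Total counts per library ran from 16675036 to 23111223, so 3 counts, the level read as a limit for a gene with none, corresponded to between 0.130 and 0.180 CPM, counts scaled to a common library size. Myeloid identity of the libraries was seen in CD33, SPI1, MPO, FLT3, ITGAM and CSF1R, whose summed level was 710 to 755 CPM in DMSO and 889 to 969 CPM in PR-957 libraries. Among these 6 genes MPO and SPI1 were higher under PR-957, FLT3 was lower and 3 did not pass the test. The 4 T-cell genes (CD3D, CD3E, CD3G and CD2) summed to at most 0.655 CPM in any library, with CD3E and CD3G at 0 throughout. Summed levels of 4 genes each were at most 1.60 CPM for B cells, at most 0.506 CPM for erythroid cells and at most 2.66 CPM for megakaryocytes, with PF4 and PPBP at 0. Mitochondrially encoded genes took 1.94% to 2.75% of counts in DMSO and 4.15% to 5.24% in PR-957 libraries. The part of the myeloid genes and of the mitochondrial share in the values below was not tested.

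The first question was which of these factors change when PSMB8 is inhibited. Under PR-957, 5 of the 7 members fell and 0 rose at an adjusted p under 0.05, and RUNX3 and CBFB did not pass the test (edgeR quasi-likelihood test, Benjamini-Hochberg over all tested genes). Of all tested genes 46.6% were called in either direction and 23.5% were lower. With library totals alone, 4 members and 2353 genes in all were lower and 4066 genes higher, in place of 3098 lower and 3045 higher. The median log2 fold change was -0.23 over the members and 0.0030 over all tested genes. MEF2C was the only called member that changed at least 1.5-fold, as 13.8% of tested genes did in either direction. The values of DMSO and PR-957 libraries did not overlap for the same 5 members, against 42.5% of tested genes without overlap. In bulk RNA, a lower level in each cell and a smaller share of cells that carry a transcript cannot be told apart.

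**Figure D1:**
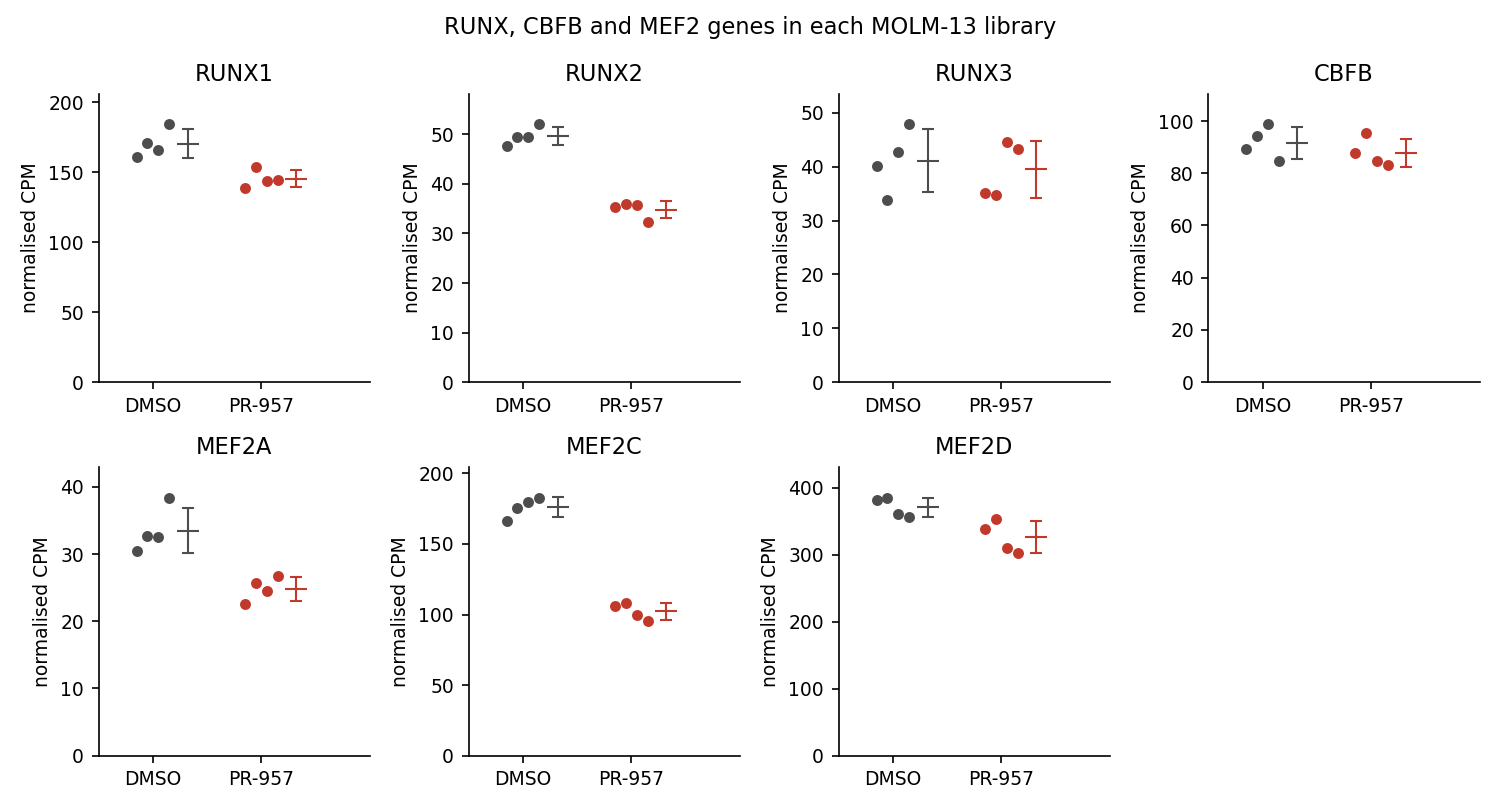
Normalised CPM (vertical axes, each starting at 0) of the 7 members in the 4 DMSO (grey) and 4 PR-957 (red) libraries, with replicates 1 to 4 from left to right and the mean with SD beside them. The groups are apart for RUNX1, RUNX2, MEF2A, MEF2C and MEF2D and overlap for RUNX3 and CBFB.

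RUNX1 (hg38, chromosome 21, 34787801 to 35049334, minus strand, 12 exon blocks) had 161, 171, 166 and 184 CPM in DMSO replicates 1 to 4 and 139, 154, 144 and 145 CPM in PR-957 replicates 1 to 4. Every PR-957 library lay below every DMSO library, although PR-957 replicate 2 came close to DMSO replicate 1. The mean fell from 171 ± 10.0 to 145 ± 6.17 CPM (SD, n = 4 each), a log2 fold change of -0.23 (SE 0.06, edgeR adjusted p = 0.00228). The 95% interval ran from -0.34 to -0.12, so the decrease was small.

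RUNX2 (chromosome 6, 45328317 to 45551082, plus strand, 10 exon blocks) had 47.5, 49.4, 49.4 and 52.0 CPM in the DMSO libraries and 35.3, 35.9, 35.8 and 32.2 CPM in the PR-957 libraries. The groups stood well apart, and PR-957 replicate 4 was the lowest library. RUNX2 fell from 49.6 ± 1.83 to 34.8 ± 1.72 CPM (SD, n = 4 each), with a log2 fold change of -0.51 (SE 0.06, edgeR adjusted p = 1.99e-06). This was the largest decrease among the RUNX genes, and its 95% interval of -0.63 to -0.39 did not reach that of RUNX1.

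RUNX3 (chromosome 1, 24899511 to 24965158, minus strand, 7 exon blocks) had 40.1, 33.7, 42.7 and 47.8 CPM in DMSO and 35.1, 34.8, 44.7 and 43.4 CPM in PR-957 libraries. The groups overlapped over most of their range, and relative to its mean the spread within a group was wider than for the other RUNX genes. The difference did not pass the test, with 41.1 ± 5.86 against 39.5 ± 5.25 CPM (SD, n = 4 each) and a log2 fold change of -0.06 (SE 0.11, edgeR adjusted p = 0.687) that was 0.02 with library totals alone. Its 95% interval of -0.28 to 0.16 still held changes as large as that of RUNX1. The tandem RUNX words shown above thus stood at starts of a member that fell and of one that was not called.

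CBFB (chromosome 16, 67029149 to 67101058, plus strand, 6 exon blocks), the shared partner subunit, had 89.1, 94.1, 98.7 and 84.7 CPM in DMSO and 87.6, 95.4, 84.7 and 83.1 CPM in PR-957 libraries. The ranges overlapped, and the lowest DMSO library was level with PR-957 replicate 3. The difference of 91.7 ± 6.09 against 87.7 ± 5.47 CPM (SD, n = 4 each) did not pass the test, with a log2 fold change of -0.06 (SE 0.06, edgeR adjusted p = 0.426, 95% interval -0.18 to 0.06) that was 0.02 with library totals alone.

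MEF2A (chromosome 15, 99565417 to 99716488, plus strand, 21 exon blocks), a broadly expressed MEF2 factor, had 30.5, 32.7, 32.5 and 38.4 CPM in DMSO and 22.6, 25.6, 24.5 and 26.8 CPM in PR-957 libraries. The groups did not overlap, and DMSO replicate 4 was the highest library. MEF2A fell from 33.5 ± 3.38 to 24.9 ± 1.79 CPM (SD, n = 4 each), a log2 fold change of -0.43 (SE 0.08, edgeR adjusted p = 0.000236, 95% interval -0.59 to -0.27). Exons of LYSMD4 on the opposite strand cover 12.7% of its exon bases. Counting used strand.

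MEF2C (chromosome 5, 88717117 to 88904105, minus strand, 21 exon blocks) had 166, 176, 180 and 183 CPM in DMSO and 106, 109, 99.6 and 95.2 CPM in PR-957 libraries. The gap between the groups was several times the range within either. MEF2C fell from 176 ± 7.18 to 102 ± 6.06 CPM (SD, n = 4 each), with a log2 fold change of -0.78 (SE 0.06, edgeR adjusted p = 1.82e-09, 95% interval -0.89 to -0.67). Fitted on replicates 1 and 2 alone, the log2 fold change of MEF2C was -0.67. On replicates 3 and 4 alone it was -0.90, and the call held in each.

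MEF2D (chromosome 1, 156463727 to 156500840, minus strand, 17 exon blocks) had 381, 385, 362 and 356 CPM in DMSO and 339, 353, 310 and 302 CPM in PR-957 libraries. The groups stayed apart only narrowly, since PR-957 replicate 2 lay just under DMSO replicate 4. MEF2D fell from 371 ± 14.2 to 326 ± 23.8 CPM (SD, n = 4 each), a log2 fold change of -0.19 (SE 0.06, edgeR adjusted p = 0.0131, 95% interval -0.30 to -0.07). This call was the least stable of the 5, since it was lost with library totals alone (-0.11, adjusted p = 0.0936), in replicates 1 and 2 only (-0.15, adjusted p = 0.0547) and without PR-957 replicate 3 (-0.16, adjusted p = 0.0602), in a range of adjusted p from 0.00116 to 0.0936 over 19 alternatives. RUNX1, RUNX2, MEF2A and MEF2C stayed past the threshold in all 19.

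**Figure D2:**
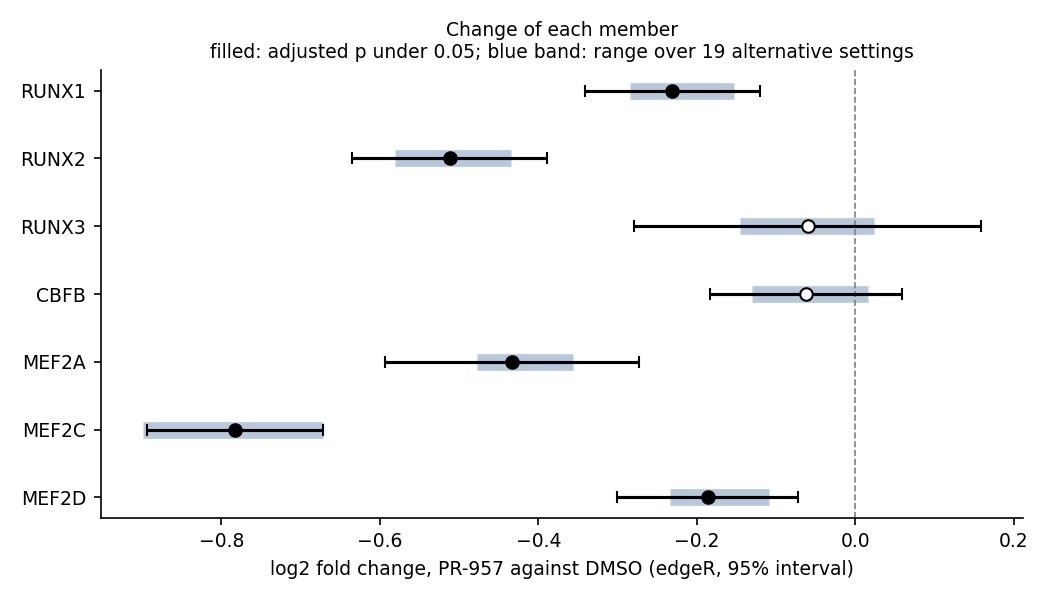
The log2 fold change of PR-957 against DMSO for each member (points, filled where the adjusted p was under 0.05) with its 95% interval (bars) and its range over 19 alternative settings (blue bands). MEF2C at -0.78 lies farthest from 0, and the intervals of RUNX3 and CBFB cross 0.

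Most listed non-coding transcripts at these loci did not pass the filter. MEF2C-AS1 (chromosome 5, 88883330 to 89467581, plus strand), an antisense RNA that overlaps MEF2C in 219 exon bases, had 6.39, 6.68, 6.16 and 6.20 CPM in DMSO and 4.51, 3.86, 3.24 and 2.98 CPM in PR-957 libraries. All 4 PR-957 libraries were lower than all DMSO libraries. It fell from 6.36 ± 0.238 to 3.65 ± 0.684 CPM (SD, n = 4 each), with a log2 fold change of -0.80 (SE 0.16, edgeR adjusted p = 0.000393), beside -0.78 for MEF2C itself. Reads were counted by strand. For 16 genes whose exons lie at least 90% under another gene on the opposite strand, read density was compared with that gene. The median was 0.0127 of the density of the other gene, and the upper quartile was 0.106. RUNX1-IT1, RUNX2-AS1, MEF2C-AS2 and MEF2B, the fourth MEF2 gene, together with its readthrough BORCS8-MEF2B, stayed under the filter, with mean levels of at most 0.340 CPM in either group.

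The next comparison was that of levels between genes, which CPM do not allow. For this, counts were divided by the exon length as well and are given as FPKM, normalised CPM per kilobase of exon. The length takes in all annotated exons of a gene (13277 bases for MEF2A, 3134 for CBFB), which the transcripts present may not all carry. The order of genes and their shares in a family therefore depend on the annotation. In DMSO the order was MEF2D (38.4 ± 1.47), CBFB (29.2 ± 1.94), MEF2C (19.1 ± 0.780), RUNX1 (14.1 ± 0.831), RUNX3 (8.39 ± 1.20), RUNX2 (8.17 ± 0.301) and MEF2A (2.52 ± 0.255 FPKM, SD, n = 4 each). Neighbours in this order did not overlap between libraries except for RUNX3 and RUNX2. Under PR-957 the FPKM order was MEF2D (33.7 ± 2.46), CBFB (28.0 ± 1.75), RUNX1 (12.0 ± 0.511), MEF2C (11.1 ± 0.659), RUNX3 (8.05 ± 1.07), RUNX2 (5.73 ± 0.284) and MEF2A (1.87 ± 0.135, SD, n = 4 each). MEF2C now overlapped with RUNX1, from which it had been apart in DMSO, and RUNX2 lay below RUNX3 in every PR-957 library.

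Paralog balance within each family was then compared. Summed RUNX levels were 30.7 ± 2.03 FPKM in DMSO and 25.8 ± 1.02 FPKM in PR-957 libraries (SD, n = 4 each). RUNX1 made up 46.0 ± 1.67% of this sum in DMSO and 46.6 ± 2.18% under PR-957. RUNX2 made up 26.7 ± 0.967% and 22.2 ± 1.49%, and RUNX3 27.3 ± 2.50% and 31.1 ± 3.20%. The share of RUNX1 overlapped between the treatments, the share of RUNX2 did not, and that of RUNX3 did.

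Summed MEF2 levels were 60.0 ± 0.912 FPKM in DMSO and 46.7 ± 3.06 FPKM under PR-957 (SD, n = 4 each). MEF2D made up 65.9%, 64.9%, 63.0% and 61.8% of the sum in DMSO replicates 1 to 4 and 72.6%, 72.7%, 71.7% and 71.7% in PR-957 replicates 1 to 4. MEF2C made up 30.2%, 31.1%, 32.9% and 33.3% in DMSO and 23.9%, 23.5%, 24.2% and 23.7% in PR-957 libraries. The shares of MEF2C and MEF2D were thus nearly alike among the PR-957 libraries and varied more among the DMSO libraries. MEF2A made up 4.21 ± 0.443% and 4.03 ± 0.466%, with about the same spread in both.

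**Figure D3:**
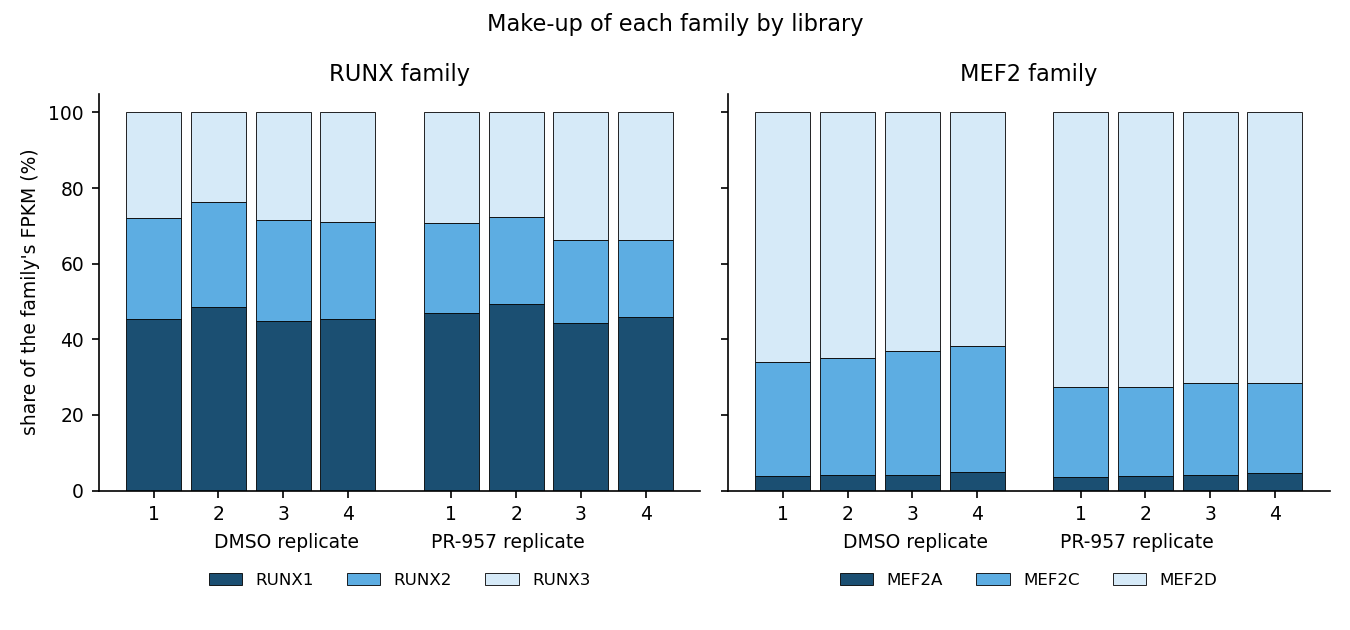
Share of each gene in the summed FPKM of its family (vertical axis, percent) in every library, RUNX genes on the left and MEF2 genes on the right. The MEF2C segment is smaller in all 4 PR-957 libraries (23.5% to 24.2%) than in any DMSO library (30.2% to 33.3%).

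The ratio of 2 paralogs within a library does not depend on how libraries are scaled. With 4 libraries a group, the exact permutation test over 70 splits (two-sided) cannot give a p under 0.0286. Adjusted over the 7 ratios compared, this smallest p became 0.05, which is at the threshold and not under it. The adjusted value depends on how many ratios reach the smallest p. None of the 7 ratios therefore passed the adjusted test, and values are given as such. MEF2D to MEF2C was 2.18, 2.08, 1.91 and 1.86 in DMSO and 3.04, 3.09, 2.96 and 3.02 in PR-957 libraries, which leaves a wide gap between the groups. On the log2 scale the difference was 0.60 (SE 0.06, exact permutation p = 0.0286, adjusted p = 0.05).

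MEF2A to MEF2C was 0.127, 0.129, 0.125 and 0.146 in DMSO and 0.148, 0.164, 0.171 and 0.195 in PR-957 libraries, a log2 difference of 0.36 (SE 0.10, exact permutation p = 0.0286, adjusted p = 0.05). The groups were separated only narrowly. MEF2D to MEF2A overlapped between the groups, with a log2 difference of 0.24 (SE 0.13, exact permutation p = 0.114, adjusted p = 0.16) that was 0.15 when DMSO replicate 4 was left out.

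Among the RUNX genes, RUNX1 to RUNX2 was 1.70, 1.74, 1.69 and 1.78 in DMSO and 1.98, 2.15, 2.02 and 2.25 in PR-957 libraries, with a log2 difference of 0.28 (SE 0.05, exact permutation p = 0.0286, adjusted p = 0.05). RUNX3 to RUNX2 was 1.04, 0.845, 1.07 and 1.14 in DMSO and 1.23, 1.20, 1.55 and 1.66 in PR-957 libraries, with a log2 difference of 0.46 (SE 0.15, exact permutation p = 0.0286, adjusted p = 0.05). Both ratios were higher in every PR-957 library than in any DMSO library. RUNX1 to RUNX3 overlapped (log2 difference -0.17, SE 0.14, exact permutation p = 0.257, adjusted p = 0.257), as did CBFB to the summed RUNX genes, whose geometric mean was 0.954 in DMSO and 1.08 under PR-957 (log2 difference 0.18, SE 0.10, exact permutation p = 0.171, adjusted p = 0.2). Single libraries moved both values. RUNX1 to RUNX3 was -0.08 without DMSO replicate 2 and -0.11 without PR-957 replicate 3, and CBFB to the summed RUNX genes was 0.10 without DMSO replicate 4.

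**Figure D4:**
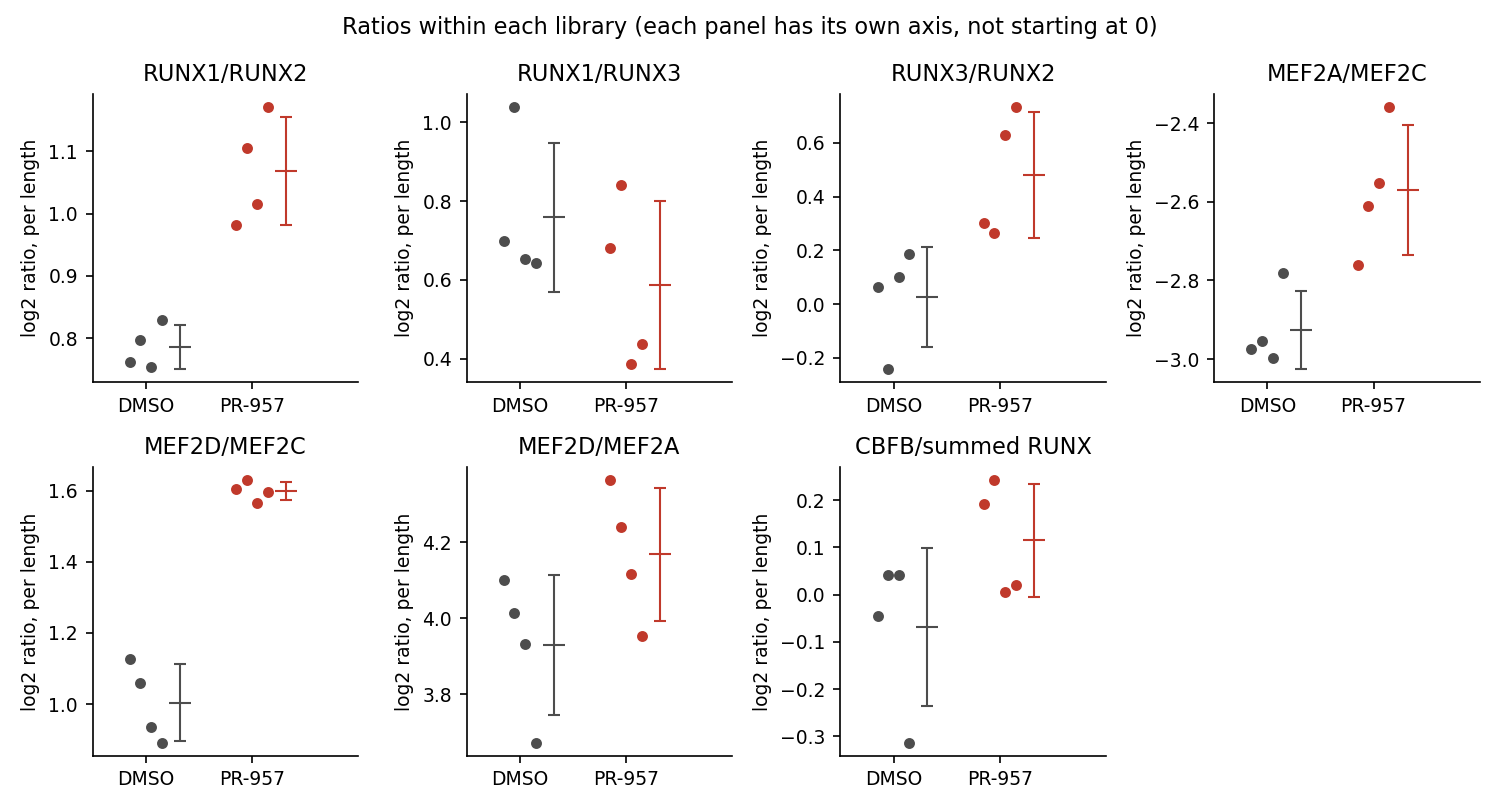
Log2 ratios of length-scaled counts within each library for 7 pairs (vertical axes, not starting at 0), with replicates 1 to 4 from left to right and the mean with SD beside them. RUNX1/RUNX2, RUNX3/RUNX2, MEF2A/MEF2C and MEF2D/MEF2C do not overlap between DMSO (grey) and PR-957 (red), whereas the other 3 do.

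Regulators of MEF2 activity were followed next. Class IIa histone deacetylases bind MEF2 proteins and silence their targets. Of the 4 genes, HDAC5 and HDAC9 fell, HDAC4 rose and HDAC7 did not pass the test, with a median log2 fold change of -0.16. For this and the lists that follow, 46.6% of all tested genes were called, about as many higher as lower. HDAC9, itself a MEF2 target and thus part of a feedback loop, had 28.9, 32.7, 30.2 and 33.6 CPM in DMSO and 17.7, 20.8, 18.2 and 17.9 CPM in PR-957 libraries. All PR-957 libraries were far below all DMSO libraries, and HDAC9 fell by 0.75 on the log2 scale (SE 0.08, edgeR adjusted p = 3.77e-07), close to the value of MEF2C.

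HDAC5 had a log2 fold change of -0.34 (SE 0.08, edgeR adjusted p = 0.00241) that was lost in replicates 1 and 2 only (adjusted p = 0.111), within a range of 8.85e-06 to 0.111. HDAC4 had a log2 fold change of 0.25 (SE 0.08, edgeR adjusted p = 0.0168), lost without DMSO replicate 2 (adjusted p = 0.0761) and in replicates 3 and 4 only (adjusted p = 0.135), in a range from 0.00309 to 0.135. HDAC7 had a log2 fold change of 0.02 (SE 0.06, edgeR adjusted p = 0.791).

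Kinases and the phosphatase calcineurin set MEF2 activity by phosphorylation of MEF2 or of its deacetylases. Of 14 such genes 12 were tested, of which 4 fell, 1 rose and 7 did not pass the test (median log2 fold change -0.12). The share called was near the 46.6% of all tested genes. MAPK14, the p38 kinase that phosphorylates MEF2 factors, rose from 107 ± 9.09 to 147 ± 9.16 CPM (SD, n = 4 each), a log2 fold change of 0.46 (SE 0.06, edgeR adjusted p = 1.07e-05). MAP2K5, the kinase upstream of ERK5, fell by 0.60 on the log2 scale (SE 0.08, edgeR adjusted p = 4.98e-06). Its target ERK5, encoded by MAPK7, had a log2 fold change of 0.20 (edgeR adjusted p = 0.129). PPP3CA, a catalytic subunit of calcineurin, fell from 92.0 ± 1.61 to 68.5 ± 5.25 CPM (SD, n = 4 each; log2 fold change -0.42, SE 0.06, edgeR adjusted p = 1.03e-05). The other genes of this list that fell were the calcineurin subunits PPP3CB (-0.19) and PPP3R1 (-0.39). PPP3CB lost its call with library totals alone (edgeR adjusted p = 0.0698). The calcineurin subunit PPP3CC did not pass the test (log2 fold change -0.06, edgeR adjusted p = 0.611).

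RUNX factors repress or activate through shared cofactors, of which 19 of 22 were tested. Of these 4 fell, 3 rose and 12 did not pass the test, with a median log2 fold change of -0.07. The share called was below the 46.6% of all tested genes. SUV39H1, a histone H3 lysine methyltransferase that binds RUNX1, rose by 0.34 and the deacetylase HDAC3 by 0.20 on the log2 scale (edgeR adjusted p = 0.000234 and 0.00626). KAT6A, an acetyltransferase that coactivates RUNX1, had a log2 fold change of -0.32 and the nuclear corepressor NCOR1 of -0.26 (edgeR adjusted p = 0.000262 and 0.0015). The 5 TLE genes of the list did not pass the test. In replicates 3 and 4 only, NCOR1 and HDAC3 lost their calls (adjusted p = 0.110 and 0.195), the upper ends of ranges that began at 2.35e-05 and 0.000393. PRMT1, a methyltransferase of RUNX1 and the third gene that rose, kept its call in 11 of 19 alternatives.

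Transcription factors that act with RUNX1 in blood cells numbered 11, of which 10 were tested. Of these 4 fell, 2 rose and 4 did not pass the test (median log2 fold change -0.09). SPI1, the myeloid factor PU.1 and a RUNX1 target, rose from 158 ± 8.24 to 181 ± 8.04 CPM (SD, n = 4 each; log2 fold change 0.20, SE 0.06, edgeR adjusted p = 0.00607). LMO2 and FLI1, which join RUNX1 at blood stem cell enhancers, had log2 fold changes of -0.33 and -0.32 (edgeR adjusted p = 0.000326 and 6.51e-05). ERG was low, with 0.313, 0.0557, 1.03 and 0.524 CPM in DMSO and 1.06, 0.887, 1.19 and 1.52 CPM in PR-957 libraries. Its groups overlapped, and its log2 fold change of 1.27 (SE 0.45, edgeR adjusted p = 0.0283) kept its call in 12 of 18 alternatives, with adjusted p from 0.00193 to 0.157. The adjusted p of ERG was 0.0765 and 0.0698 when DMSO replicate 1 or 2 was left out, 0.0509, 0.0620 and 0.0791 when PR-957 replicate 1, 3 or 4 was left out, and 0.157 in replicates 3 and 4 only. The other 2 of the 4 genes that fell, MYB and ETS1, kept their calls in 12 and 11 of 19 alternatives.

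**Figure D5:**
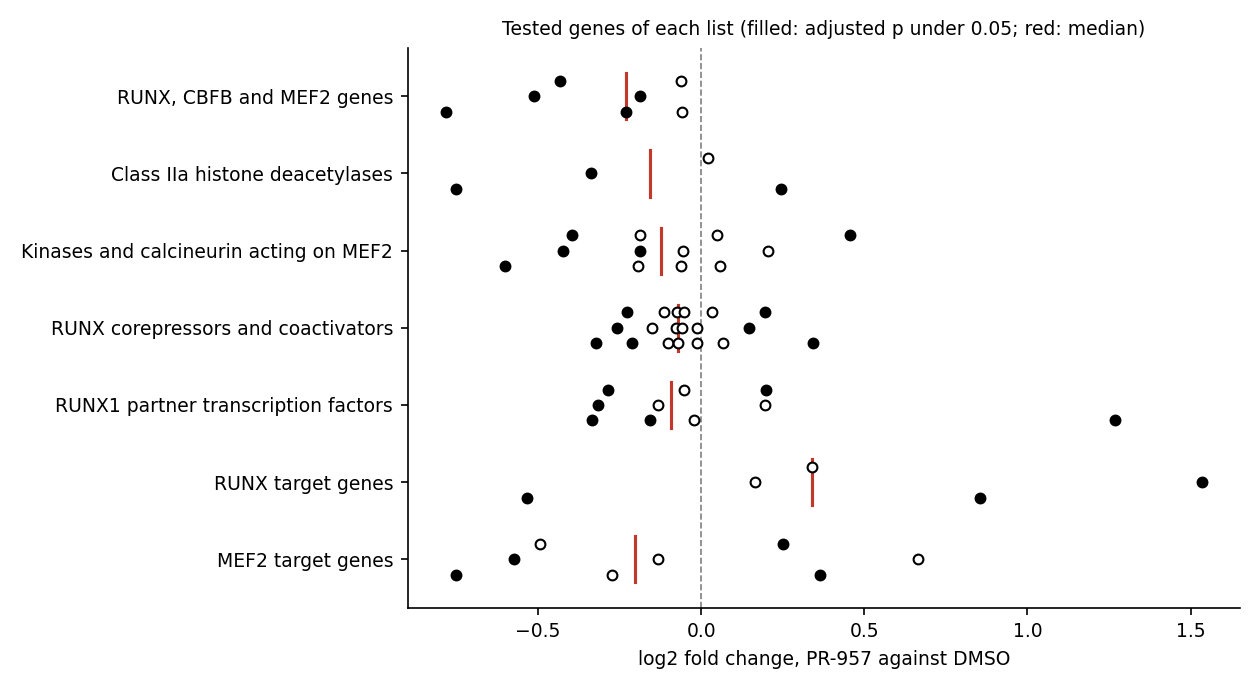
The log2 fold change of PR-957 against DMSO (horizontal axis) of every tested gene in the lists of members, cofactors, partners and targets, 1 row per list, with filled points at an adjusted p under 0.05 and the list's median in red. Vertical scatter within a row separates points and carries no value. The 5 called members lie below 0, whereas each other list has genes on both sides.

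Targets of the factors came last. Of 11 RUNX targets 5 were tested, and the remaining 6 stayed under the filter. NFE2 and MPO rose, PRKCQ fell and 2 did not pass the test (median log2 fold change 0.34). MPO, the myeloperoxidase of myeloid granules, had 177, 166, 196 and 159 CPM in DMSO and 500, 501, 469 and 553 CPM in PR-957 libraries. The groups were far apart, with a log2 fold change of 1.53 (SE 0.07, edgeR adjusted p = 1.26e-12). NFE2, a RUNX1-regulated factor of megakaryocytes and red cell precursors, rose from 33.4 ± 0.765 to 60.4 ± 8.57 CPM (SD, n = 4 each; log2 fold change 0.86, SE 0.08, edgeR adjusted p = 2.34e-07). PRKCQ, a kinase known to be reduced in platelets with RUNX1 mutation, had a log2 fold change of -0.53 (SE 0.13, edgeR adjusted p = 0.00169).

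Of 9 MEF2 targets 8 were tested, of which 2 fell, 2 rose and 4 did not pass the test (median log2 fold change -0.20). The share called was near the 46.6% of all tested genes. HDAC9 has been given above. KLF2, a Krüppel-like factor induced through ERK5 and MEF2, had 11.9, 7.02, 7.85 and 8.21 CPM in DMSO and 5.79, 5.95, 6.35 and 5.29 CPM in PR-957 libraries. DMSO replicate 1 was the highest library, and the groups did not overlap (log2 fold change -0.57, SE 0.15, edgeR adjusted p = 0.00471). KLF4 and IRF8 rose by 0.36 and 0.25 on the log2 scale (edgeR adjusted p = 0.00343 and 0.000885). In replicates 3 and 4 only, KLF2, KLF4 and IRF8 did not pass the threshold (adjusted p = 0.0649, 0.0770 and 0.108). Their adjusted p over the 19 alternatives ran up to these values from 0.000555, 0.000777 and 2.06e-05.

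For each member, the 2 genes whose normalised log2 CPM followed it most closely over the 8 libraries were named from 9240 candidates. These Pearson r describe these libraries, include the difference between the treatments where there is one, and are the highest of many. AFF1 (0.994) and ITGAV (0.991) were most alike to RUNX1, AKNA (0.999) and ZNF277 (0.996) to RUNX2, and PIM2 (0.969) and PRR11 (0.963) to RUNX3. For CBFB these were MRPS31 (0.958) and RABL2A (0.942). MBP (0.996) and SPTBN1 (0.989) were most alike to MEF2A, CDKN1B (0.998) and MPRIP (0.997) to MEF2C, and TRIM46 (0.993) and CRADD (0.984) to MEF2D. AFF1 encodes a component of the super elongation complex, and CDKN1B encodes the cyclin-dependent kinase inhibitor p27.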

How the data were processed

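Polyadenylated RNA of 4 DMSO and 4 PR-957 libraries was analysed, grouped by sample titles. Per the submitters' processing notes and the study's methods, reads were trimmed with Trimmomatic 0.39 and aligned to hg38 with STAR 2.7.10a. Per the file headers, the authors counted fragments per gene with featureCounts 2.0.1, paired, with both ends mapped and on the reverse strand, against NCBI RefSeq models. The deposited values are raw counts. The command named 16 libraries, and the 8 not in the table were not analysed here. Gene rows without values (6) were left out. The authors also deposited their own DESeq2 comparison (mean count, log2 fold change, SE and p-values per gene), which was not used.

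PR-957 was compared with DMSO on raw counts with edgeR 4.0.16 in R 4.3.3 (TMM scaling, filterByExpr, glmQLFit with robust estimation, glmQLFTest, two-sided, no covariate, all 8 libraries). Adjustment by Benjamini-Hochberg covered all 13179 genes, which hold 99.9% of counts. SE came from the log2 fold change and the square root of its F. CPM are TMM-normalised. FPKM were computed here by dividing CPM by exon length in kilobases. Paralog ratios used counts plus 0.5 per kilobase of exon, with exact permutation tests (SciPy 1.17.1). The limit of 3 counts covers counting error only. No pair of replicates agreed within sampling noise (lowest chi-square 3.32 per gene).

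The members, lists and tests were chosen with earlier results of these data known. Cofactor, partner and target lists came from general knowledge. Named genes were the members, the class IIa deacetylases, up to 2 of the largest called increases and decreases in each other list, and the 2 genes most alike to each member by Pearson r among those with an average log2 CPM of at least 3. Other genes named in a list were chosen after their values were seen. Alternatives were DESeq2 1.42.0, limma-voom (limma 3.58.1), RLE, upper-quartile or no scaling factors, no filter, a minimum of 1 CPM in 4 libraries, a block for the replicate number, replicates 1 and 2 against 3 and 4 as a term or fitted alone, and leaving out each library.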

Additional observations from a re-analysis of the deposited data

Results flagged for a closer look

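In groups of 4 libraries, single values far from the other 3 (Dixon's test, 95% level) were found in 6 of 72 groups examined, where chance gives about 1 in 20. RUNX2 had 32.2 CPM in PR-957 replicate 4, below the other PR-957 libraries at 35.3 to 35.9 CPM. The log2 ratio of RUNX1 to RUNX3 was 1.04 in DMSO replicate 2, above the other DMSO libraries at 0.64 to 0.70. HDAC5 had 63.9 CPM in DMSO replicate 4, above 50.4 to 52.5 CPM in the others. HDAC9 had 20.8 CPM in PR-957 replicate 2, above 17.7 to 18.2 CPM. PPP3CA had 94.3 CPM in DMSO replicate 2, above 90.8 to 91.3 CPM. PRKCQ had 5.68 CPM in PR-957 replicate 4, below 6.63 to 6.74 CPM.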

How the results depend on the processing

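Of 133 alternative log2 fold changes of the members, 127 kept their direction and their side of the threshold. Of 76 alternative counts of calls, 75 were within 1.5 times the main count. They include the count of members called higher, which was 0 in the main fit and in every alternative. A change from 5 to 4 members lower also lay within that limit, so the 75 say little of stability. With library totals alone the log2 fold changes of RUNX3 and CBFB were 0.0195 and 0.0157, and MEF2D at -0.11 was not called. That scaling moved the median of all genes to 0.08 and gave 4066 genes higher and 2353 lower, against 3045 and 3098 with TMM. MEF2D was also not called in replicates 1 and 2 only (-0.15). Of the listed genes 6 were higher in replicates 3 and 4 only, against 11 in the whole set and 14 when replicates 1 and 2 were fitted alone. Of all tested genes 2336, 3045 and 2664 were higher in these fits, in the same order. The causes were not tested. Leaving out 1 library gave ranges of -0.15 to 0.02 for RUNX3 (0.0232 without DMSO replicate 4), -0.11 to -0.03 for CBFB and -0.23 to -0.15 for MEF2D (-0.16 without PR-957 replicate 3), with 4 to 5 members lower. All 85 alternatives of the ratios stayed within 1 SD between replicates, which says little of their stability. Leaving out 1 of 4 libraries cannot move a mean that far, and a replicate block leaves the difference unchanged. Without 1 library RUNX1 to RUNX3 ran from -0.26 to -0.08, CBFB to summed RUNX from 0.10 to 0.22 and MEF2D to MEF2A from 0.15 to 0.31. Of 531 alternatives for single listed genes, 491 kept the call, and 40, over 14 genes, lost it with the same direction. The 95% intervals of RUNX3 (-0.28 to 0.16) and CBFB (-0.18 to 0.06) hold changes in either direction.

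No label says that same-numbered libraries share a culture or day. Deviations from the group means correlated between same-numbered libraries with r = 0.151, 0.213, 0.098 and 0.198, of which not all passed 0.1, so the numbers were not taken as pairs. As a hint from the data, 7 of 8 libraries correlated best with the library of their own number, the exception being PR-957 replicate 3. Between the treatments, r was 0.0737 to 0.213 within replicates 1 and 2 or within replicates 3 and 4. Between replicates 1 or 2 of one treatment and 3 or 4 of the other, r was -0.187 to -0.0411. Whether this reflects a batch was not tested. With the replicate number as a block, 5 members were lower. Of the listed genes 21 were lower and 12 higher in that fit (against 17 and 11), and of all genes 3400 were lower and 3513 higher (against 3098 and 3045). With replicates 1 and 2 against 3 and 4 as a term, 21 listed genes were lower and 12 higher. Of all genes 3297 were lower and 3371 higher in the fit with that term.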

Other observations

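For the 5 members that fell, every PR-957 library lay below every DMSO library. A fall within any pair of replicates was therefore given in advance, and only its size is of interest. When replicates 1 and 2 and replicates 3 and 4 were fitted apart, the log2 fold changes were larger in the latter. RUNX1 had log2 fold changes of -0.18 and -0.28, RUNX2 of -0.45 and -0.58, MEF2A of -0.39 and -0.48, MEF2C of -0.67 and -0.90 and MEF2D of -0.15 and -0.23. For MEF2D the value of the former pair was not called. RUNX3 had -0.08 and -0.05 and CBFB -0.0012 and -0.13, without a call in either. The difference between the replicate pairs was not tested, and no label describes replicates 1 and 2 as a batch.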
